A study of Rattus norvegicus with 30 samples.

Results

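The genes examined were 9 genes through which Leydig cells of the rat testis receive luteinizing hormone (LH), make testosterone and secrete insulin-like peptide 3. They were chosen by name (Lhcgr, Star, Cyp11a1, Hsd3b1, Cyp17a1, Hsd17b3, Fdx1, Por and Insl3), and all 9 were found among the 17322 genes of the deposited table by their Entrez Gene identifiers. RNA was sequenced from testes of Wistar Han rats, untreated and uncultured, at 6 ages from 8.5 to 53.5 days post partum (dpp), namely 8.5 and 14.5, then 24.5 and 30.5, and last 36.5 and 53.5 dpp, and from fragments of 8.5 dpp testes kept for 6, 16, 22 or 28 days on agarose gels at the interphase of gas and liquid (D6, D16, D22 and D28). By total age D6 was matched to 14.5 dpp, D16 to 24.5 dpp, D22 to 30.5 dpp and D28 to 36.5 dpp. Each group had 3 libraries except 14.5 dpp, which had 2, since a further library of that age was excluded in the study and is listed at 0 for all 17322 genes. In vivo libraries came from different testes, whereas each cultured library pooled explants of several males from which the necrotic centre had been cut away, and the medium listed serum replacement, retinol and vitamin E with no gonadotropin. The study left D6 out of its own selection of genes because of its cellular composition. Values are in FPKM, fragments scaled to transcript length and to the size of the library, so that levels of different genes can be set side by side.

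Leydig cells lie between the seminiferous tubules. LH binds its receptor and raises cyclic AMP, cholesterol is moved into mitochondria, and a chain of cytochrome P450 enzymes and dehydrogenases turns it into testosterone, which Sertoli cells need to carry germ cells through meiosis. In rodents, a fetal population of Leydig cells is present at birth and is overtaken during puberty by an adult population that arises from spindle-shaped progenitors. Culture takes the tissue away from the pituitary, the source of LH. In whole tissue, fewer Leydig cells and less RNA of a gene in each of them cannot be told apart.

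Promoter windows of 300 bases, from 250 bases before to 50 bases after the transcription start in RefSeq (build GRCr8), were at hand for 7 of the 9 genes, all but Star and Cyp17a1. The nuclear receptor NR5A1 (steroidogenic factor 1) is known to act on steroidogenic promoters, so both strands were searched for its extended half-sites CAAGGTCA and CAAGGCCA, for the NR4A1 site AAAGGTCA and for TATAAA. None of these 4 motifs was found in any of the 7 windows, against 1.52%, 2.19%, 1.43% and 14.2% of 33469 rat windows. Shorter forms were then searched, chosen after that result was seen. The core AGGTCA, which is contained in CAAGGTCA and AAAGGTCA, was found in 6 of 7 windows and in 16.2% of all windows, and TATAA, the start of TATAAA, in 3 of 7 and in 26.2% of all windows. Windows are shown for 3 genes called lower in explants at each culture time (Cyp11a1, Hsd3b1 and Insl3) and for Hsd17b3, which followed another course, with AGGTCA and TATAA on either strand in capitals.
Cyp11a1, chr8:67318415-67318714, plus strand: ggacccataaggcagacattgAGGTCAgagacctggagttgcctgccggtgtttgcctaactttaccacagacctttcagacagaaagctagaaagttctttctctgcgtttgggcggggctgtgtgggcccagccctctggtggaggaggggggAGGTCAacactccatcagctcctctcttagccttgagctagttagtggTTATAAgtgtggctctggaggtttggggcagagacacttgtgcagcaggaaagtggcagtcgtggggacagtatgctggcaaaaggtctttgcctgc
Hsd3b1, chr2:188864645-188864944, minus strand: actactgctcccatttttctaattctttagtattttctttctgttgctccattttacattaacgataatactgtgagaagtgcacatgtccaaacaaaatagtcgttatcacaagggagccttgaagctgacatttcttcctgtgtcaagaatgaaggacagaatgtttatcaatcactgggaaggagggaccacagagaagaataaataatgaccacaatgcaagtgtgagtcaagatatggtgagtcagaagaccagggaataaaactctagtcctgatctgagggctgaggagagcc
Insl3, chr16:18432939-18433238, plus strand: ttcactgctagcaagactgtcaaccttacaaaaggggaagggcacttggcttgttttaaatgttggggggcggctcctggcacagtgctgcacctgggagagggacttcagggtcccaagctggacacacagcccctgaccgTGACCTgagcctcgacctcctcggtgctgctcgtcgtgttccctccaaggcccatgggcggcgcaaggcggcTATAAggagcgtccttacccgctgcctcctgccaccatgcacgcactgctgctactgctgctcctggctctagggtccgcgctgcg
Hsd17b3, chr17:1032708-1033007, plus strand: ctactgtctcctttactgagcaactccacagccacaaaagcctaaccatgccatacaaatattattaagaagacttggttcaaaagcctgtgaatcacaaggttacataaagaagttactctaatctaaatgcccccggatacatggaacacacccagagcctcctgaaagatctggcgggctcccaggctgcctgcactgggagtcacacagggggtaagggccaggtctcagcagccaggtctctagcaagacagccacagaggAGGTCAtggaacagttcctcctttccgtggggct
The Cyp11a1 window held AGGTCA at 229 and 95 bases before the start, and TATAA 46 bases before it. In the Insl3 window AGGTCA lay on the other strand, 108 bases before the start, and TATAA 36 bases before it, while the annotated Insl3 locus begins upstream of the start used for this window. Hsd17b3 held AGGTCA 16 bases after its start, and the Hsd3b1 window held neither. Such matches describe the letters of these windows only.

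Of the 9 genes, Insl3 and Cyp17a1 parted testes and explants most widely. Every one of the 12 explant libraries lay below every one of the 17 testis libraries for both genes. For Insl3, which encodes the Leydig cell hormone of testicular descent, the testes ranged from 7.18 to 258 FPKM and the explants from 0.395 to 2.40. For Cyp17a1, the 17α-hydroxylase and lyase that opens the way to androgens, the testes ranged from 22.4 to 203 FPKM, and the explants reached at most 0.839, with 1 D6 library listed at 0. For Cyp11a1, the side chain cleavage enzyme, and Hsd3b1, a 3β-hydroxysteroid dehydrogenase, 11 of 12 explant libraries lay below all testes. Star, Fdx1 and Por overlapped between testes and explants, and Hsd17b3 and Lhcgr followed time courses of their own.

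**Figure D1:**
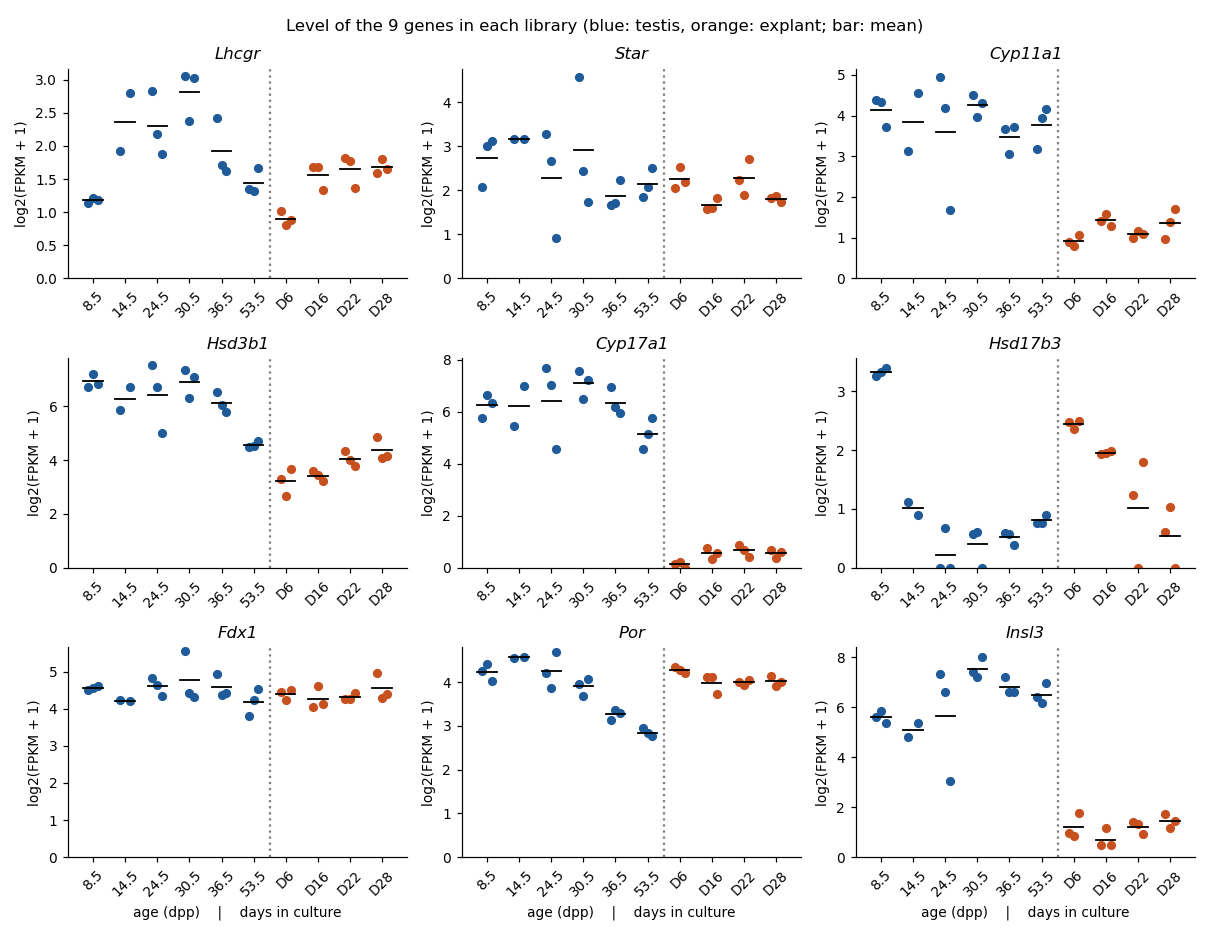
Level of each gene, as log2(FPKM + 1), in each library of the 6 ages in vivo (blue) and the 4 culture times (orange), with the group mean as a bar and an axis of its own for each gene. Insl3 and Cyp17a1 are lower in all 12 explant libraries than in any of the 17 testes, whereas Fdx1 and Por overlap.

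A library that stood apart bears on the results at 24.5 dpp. In the testis numbered 3 of this age, Insl3 was at 7.18 FPKM against 160.1 and 98.1 in the other two, Cyp17a1 at 22.4 against 203 and 128, Cyp11a1 at 2.19 against 29.9 and 17.3, and Star at 0.873 against 8.77 and 5.37. The mean of the 9 genes on the log2(FPKM + 1) scale was 2.90 there and 4.74 and 4.29 in the others. Summed FPKM of 10 Sertoli cell markers were highest in the same library, at 2707 against 1904 and 1781. Fits at 24.5 dpp were therefore run with and without it. At 30.5 dpp, the testis numbered 1 was high for Star (23.0 against 4.39 and 2.35 FPKM) and Fdx1 (46.2 against 20.4 and 19.0).

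The first question was how the genes changed as the testis matured. Insl3 stood at 48.5, 56.0 and 40.0 FPKM at 8.5 dpp, at 27.3 and 40.0 at 14.5 dpp and at 160.1, 98.1 and 7.18 at 24.5 dpp. It stood at 168, 148 and 258 FPKM at 30.5 dpp, at 147, 96.4 and 95.7 at 36.5 dpp and at 83.1, 70.5 and 124 at 53.5 dpp. The 30.5 dpp testes had the highest mean, above all testes of 36.5 dpp, but their range (148 to 258 FPKM) overlapped that of 24.5 dpp (7.18 to 160.1), whose mean rests on the low testis. Cyp17a1 stood at 53.0, 99.3 and 78.5 FPKM at 8.5 dpp, at 42.2 and 125 at 14.5 dpp, at 203, 128 and 22.4 at 24.5 dpp and at 186, 88.1 and 147 at 30.5 dpp. It then stood at 122, 71.1 and 60.2 FPKM at 36.5 dpp and at 22.8, 34.1 and 52.9 at 53.5 dpp, where its range lay below those of 8.5, 30.5 and 36.5 dpp. Cyp11a1 showed no such course, with group means between 10.4 ± 2.67 (36.5 dpp) and 18.4 ± 3.47 FPKM (30.5 dpp, SD, n = 3) and overlapping neighbours in the order of the 6 ages.

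Hsd3b1, which converts pregnenolone to progesterone, stood at 104, 147 and 114 FPKM at 8.5 dpp, at 91.7, 64.6 and 53.6 at 36.5 dpp and at 21.2, 22.0 and 25.1 at 53.5 dpp. It fell over the last step, by 1.55 on the log2(FPKM + 1) scale (SE 0.48, limma adjusted p = 0.0226), and all 3 testes of 53.5 dpp lay below all of 36.5 dpp. The call was lost without replicate 1 or 2 of 36.5 dpp or of 53.5 dpp (limma adjusted p = 0.0502 to 0.0824), and with median-ratio scaling or scaling to somatic genes (adjusted p = 0.109 and 0.197). The rat genome carries near-identical copies of this gene. Hsd3b2 and Hsd3b3 were listed at 0 in all libraries and Hsd3b5 reached at most 4.63 FPKM, so how reads were split between copies is uncertain for Hsd3b1.

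Lhcgr, the LH receptor, rose between 8.5 and 14.5 dpp. It stood at 1.21, 1.33 and 1.26 FPKM at 8.5 dpp and at 2.78 and 5.99 at 14.5 dpp, a log2 change of 1.18 (SE 0.32, limma adjusted p = 0.00923). It went on at 6.14, 3.53 and 2.69 FPKM at 24.5 dpp and at 7.33, 4.18 and 7.12 at 30.5 dpp. From there it fell to 4.37, 2.28 and 2.09 FPKM at 36.5 dpp, by 0.90 on the log2 scale (SE 0.29, limma adjusted p = 0.0271), with ranges that overlapped, and was at 1.56, 1.49 and 2.17 at 53.5 dpp. Both calls rested on few libraries, since the rise was lost without 14.5 dpp replicate 2 (adjusted p = 0.179) and the fall without any of 4 libraries (adjusted p = 0.0900 to 0.108). Scaling ended both as well, the rise with scaling to somatic genes (0.72, limma adjusted p = 0.113) and the fall with that scaling (adjusted p = 0.0891) and with median-ratio scaling (adjusted p = 0.0763).

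Hsd17b3, whose product makes testosterone from androstenedione, had the largest fall called in vivo. This step is known from adult Leydig cells, and in the fetal mouse testis from Sertoli cells. It stood at 8.62, 8.99 and 9.51 FPKM at 8.5 dpp and at 1.16 and 0.870 at 14.5 dpp, a log2 change of -2.32 (SE 0.20, limma adjusted p = 2.40e-06). At 24.5 dpp it was listed at 0 in 2 testes and at 0.590 FPKM in the other, a further log2 change of -0.79 (SE 0.20, limma adjusted p = 0.00372), and from 30.5 to 53.5 dpp it did not exceed 0.856 FPKM. No later step was called with the values as deposited. With scaling to somatic genes the change to 24.5 dpp was not called either (-0.19, limma adjusted p = 0.543), but that from 36.5 to 53.5 dpp was called higher (0.73, adjusted p = 0.0359). Without 24.5 dpp replicate 2 the change from 24.5 to 30.5 dpp was called higher (0.39, limma adjusted p = 0.0384). In RefSeq the gene overlaps Ercc6l2, which is not listed in the table, and Insl3 overlaps B3gnt3, which reached at most 0.514 FPKM in any library. Whether reads were counted by strand is not given in the sources used here.

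None of the remaining genes was called in any step between ages. Star, the carrier of cholesterol into mitochondria, had group means from 2.70 ± 0.852 (36.5 dpp) to 9.93 ± 11.4 FPKM (30.5 dpp, SD, n = 3), the latter set by 1 library. Fdx1, the ferredoxin that feeds electrons to CYP11A1, ranged from 13.0 to 46.2 FPKM over all testes. Por, the reductase that serves CYP17A1, went from 22.7 ± 0.212 FPKM (SD, n = 2) at 14.5 dpp to 6.22 ± 0.462 (SD, n = 3) at 53.5 dpp, in steps whose ratios of group medians stayed under 2. POR also serves the P450 enzymes of every other cell type.

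A gene was called where limma gave an adjusted p no higher than 0.05 and group medians differed at least 2-fold. From 8.5 to 14.5 dpp, 1 gene (Lhcgr) was called higher and 1 (Hsd17b3) lower, where 8.37% of 12531 genes were called higher and 6.32% lower. From 14.5 to 24.5 dpp, 0 were higher and 1 (Hsd17b3) lower (14.2% and 21.4% of genes), and without 24.5 dpp replicate 3 Insl3 was called higher too (log2 change 1.89, limma adjusted p = 0.000347). With scaling to somatic genes this step had 3 genes higher, Fdx1 (1.54, limma adjusted p = 0.000765), Hsd3b1 (1.41, adjusted p = 0.0386) and Lhcgr (0.80, adjusted p = 0.0221), and 0 lower. Shares of all genes are given here only for the values as deposited with all libraries. From 24.5 to 30.5 dpp, limma called 0 of the 9 genes in either direction (13.1% and 24.5% of genes), with 1 gene, Insl3, at an unadjusted p below 0.05 and a log2 change of 1.88 (adjusted p = 0.0386, ratio of medians 1.71). This value rested on the testis that stood apart. Without it the change of Insl3 was 0.56 (limma adjusted p = 0.133), those of Star, Cyp11a1, Cyp17a1 and Hsd3b1 turned from between 0.49 and 0.67 to between -0.31 and -0.06, and none of the 9 genes was called. With all libraries, Insl3 and Lhcgr were called higher with median-ratio scaling (2.39, adjusted p = 0.0136, and 0.93, adjusted p = 0.00677) and with scaling to somatic genes (2.77, adjusted p = 0.00752, and 1.29, adjusted p = 0.000671). From 30.5 to 36.5 dpp, 0 were higher and 1 (Lhcgr) lower (6.08% and 1.4% of genes). From 36.5 to 53.5 dpp, 0 were higher and 1 (Hsd3b1) lower (2.62% and 3.93% of genes), and without 24.5 dpp replicate 3, which enters the shared spread, Cyp17a1 was called lower too (adjusted p = 0.0444). The median of all genes tested moved by -0.13, -0.32, -0.18 and -0.25 over the last 4 steps.

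Explants were next set against the 8.5 dpp testes from which they were cut. At D6, 4 genes had fallen and 0 had risen, where 9.9% of 11539 genes rose and 6.23% fell. Cyp17a1 was at 0.114, 0.176 and 0 FPKM at D6, a log2 change of -6.11 (SE 0.20, limma adjusted p = 3.72e-10). Insl3 was at 0.950, 0.819 and 2.40 FPKM, a log2 change of -4.41 (SE 0.25, limma adjusted p = 4.21e-08). Neither gene exceeded 2.40 FPKM in any D6 library. Hsd3b1 fell to 8.91, 5.38 and 11.8 FPKM, by 3.71 on the log2 scale (SE 0.26, limma adjusted p = 2.36e-07), and Cyp11a1 to 0.863, 0.736 and 1.10 FPKM, by 3.22 (SE 0.19, limma adjusted p = 5.36e-08). The 1 added to FPKM before the log2 shrinks changes of genes that end near or below 1 FPKM. By medians, Cyp11a1 fell 22.4-fold and Hsd3b1 12.8-fold. Hsd17b3 changed by -0.89 (SE 0.35, adjusted p = 0.0488) with a ratio of medians of 0.505, just outside the limit. Star, Lhcgr, Fdx1 and Por had log2 changes from -0.47 to 0.04 and were not called.

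Later culture times share the 8.5 dpp testes as their reference. At D16, 6 genes were lower than at 8.5 dpp and 0 higher (12.4% of genes higher, 9.72% lower). The counts were 5 and 0 at D22 (13.6% higher, 9.92% lower) and 6 and 0 at D28 (13.6% higher, 10.5% lower). Insl3, Cyp17a1, Cyp11a1, Hsd3b1 and Hsd17b3 were lower at all 3 times, and Star at D16 (log2 change -1.07, limma adjusted p = 0.00281) and D28 (-0.92, adjusted p = 0.00674). In the fit of all 10 groups Star lost both calls (adjusted p = 0.0889 and 0.138), and with a pseudocount of 0.1 Hsd17b3 lost that at D16 (adjusted p = 0.200). Lhcgr lay above 8.5 dpp at D16, D22 and D28 (log2 changes 0.39, 0.47 and 0.50, limma adjusted p = 0.0191, 0.00579 and 0.00411). Its ratios of medians of 1.75, 1.91 and 1.71 were under the limit, so it was not called. Insl3 was at 0.398, 1.22 and 0.395 FPKM at D16, 1.68, 1.48 and 0.923 in D22 explants and 2.36, 1.27 and 1.72 in D28 explants. Cyp17a1 stayed at or below 0.839 FPKM in all 9 of these libraries. Cyp11a1 was at 1.65, 2.00 and 1.42 FPKM in D16 explants, at 0.986, 1.24 and 1.14 in D22 explants and at 0.949, 1.59 and 2.26 in D28 explants. Neither Insl3 nor Cyp11a1 returned to the 8.5 dpp range at any culture time.

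Within culture, from D6 to D28, 1 gene rose and 1 fell (3.12% of genes rose, 2.79% fell). Lhcgr rose from 1.01, 0.744 and 0.838 FPKM at D6 to 2.00, 2.48 and 2.15 at D28, a log2 change of 0.78 (SE 0.13, limma adjusted p = 0.000696), and every D28 library lay above every D6 library. Hsd17b3 fell from 4.54, 4.13 and 4.61 FPKM at D6 through 2.83, 2.86 and 2.93 at D16 and 1.35, 0 and 2.46 at D22 to 0.515, 1.05 and 0 at D28, a log2 change of -1.89 (SE 0.35, limma adjusted p = 0.00154). Its D6 and D16 groups overlapped no other group. Hsd3b1 stood at 11.2, 9.79 and 8.38 FPKM at D16, at 19.3, 15.2 and 12.8 at D22 and at 28.4, 16.1 and 16.7 at D28. From D6 to D28 its log2 change was 1.15 (SE 0.26, limma adjusted p = 0.00598) without overlap, but the ratio of medians of 1.87 was under the limit, so it was not called. Cyp11a1 and Cyp17a1 had log2 changes of 0.43 (adjusted p = 0.123) and 0.42 (adjusted p = 0.131), and neither was called. All 3 D28 libraries of Cyp17a1 (0.308 to 0.602 FPKM) lay above all 3 of D6 (0 to 0.176), with a ratio of medians of 4.45, and with a pseudocount of 0.1 it was called higher (1.63, limma adjusted p = 0.0150). Cyp11a1 was called higher without D28 replicate 1 (0.62, adjusted p = 0.0275).

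The comparison at matched age asked how far explants differed from testes that had matured for the same time. At D6 against 14.5 dpp, 6 of the 9 genes were lower and 1 was higher, where 2.37% of 11309 genes were called lower and 5.57% higher. The log2 changes were -6.07 for Cyp17a1 (SE 0.42, limma adjusted p = 0.00109), -3.89 for Insl3 (SE 0.31, adjusted p = 0.00162), -3.06 for Hsd3b1 (SE 0.36, adjusted p = 0.00628) and -2.93 for Cyp11a1 (SE 0.39, adjusted p = 0.00867). Without the added 1 the order was another. Medians differed 732-fold for Cyp17a1, 35.4-fold for Insl3, 17.6-fold for Cyp11a1 and 9.04-fold for Hsd3b1. Lhcgr and Star were lower by less, with log2 changes of -1.47 (SE 0.26, limma adjusted p = 0.0201) and -0.90 (SE 0.17, adjusted p = 0.0235), and both calls were lost when libraries were left out, Lhcgr without any D6 library (adjusted p = 0.0664 to 0.0738) and Star without D6 replicate 1 or 3 or either testis (adjusted p = 0.0718 to 0.0869). With the replicate block they were lost as well (adjusted p = 0.0786 and 0.0860). Hsd17b3 was higher in culture, at 4.13 to 4.61 FPKM against 1.16 and 0.870, a log2 change of 1.43 (SE 0.13, limma adjusted p = 0.00239). Fdx1 (0.18, adjusted p = 0.381) and Por (-0.29, adjusted p = 0.134) were not called.

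At D16 against 24.5 dpp, 4 genes were lower and 1 was higher, beside 18.3% and 25.3% of 11658 genes. Insl3 (log2 change -4.96, SE 1.04, limma adjusted p = 0.00445), Cyp17a1 (-5.86, SE 0.74, adjusted p = 0.000427), Hsd3b1 (-3.01, SE 0.59, adjusted p = 0.00327) and Cyp11a1 (-2.18, SE 0.77, adjusted p = 0.0377) were the lower genes. Hsd17b3 was the higher one, at 2.83 to 2.93 FPKM against 0.590 in 1 testis and 0 in the others. Without the testis that stood apart, the changes were -6.28 for Insl3, -6.79 for Cyp17a1, -3.72 for Hsd3b1, -3.15 for Cyp11a1 and 1.62 for Hsd17b3. Star (log2 change -1.31, limma adjusted p = 0.00188) and Lhcgr (-0.94, adjusted p = 0.0112) were then added, which made 7 genes called. The shares of all genes given above belong to the fit with all libraries. Leaving out any of the other 5 libraries ended the call of Cyp11a1 (adjusted p = 0.0786 to 0.111).

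At D22 against 30.5 dpp, 5 genes were lower and 0 higher, beside 22.9% and 42.1% of 12118 genes. The log2 changes were -6.42 for Cyp17a1 (SE 0.27, limma adjusted p = 1.12e-06), -6.32 for Insl3 (SE 0.23, adjusted p = 6.32e-07), -3.18 for Cyp11a1 (SE 0.15, adjusted p = 1.57e-06), -2.87 for Hsd3b1 (SE 0.28, adjusted p = 5.28e-05) and -1.16 for Lhcgr (SE 0.22, adjusted p = 0.00168). Hsd17b3 was not called (0.61, adjusted p = 0.225) unless the D22 library listed at 0 was left out (1.12, adjusted p = 0.00843). At D28 against 36.5 dpp, 4 genes were lower and 0 higher, beside 23.6% and 46.7% of 12210 genes. Cyp17a1 stood at 0.602, 0.308 and 0.507 FPKM at D28 against 122, 71.1 and 60.2, a ratio of medians of 140.4 and a log2 change of -5.80 (SE 0.25, limma adjusted p = 5.79e-07). For Insl3 the medians differed 55.9-fold (log2 change -5.35, SE 0.21, limma adjusted p = 3.96e-07), for Cyp11a1 7.33-fold (-2.13, SE 0.24, adjusted p = 9.43e-05) and for Hsd3b1 3.88-fold (-1.74, SE 0.27, adjusted p = 0.000515). These 4 calls held when any of the 6 libraries was left out.

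Tissue makeup differed between the groups in this comparison. Germ cell markers (8 measured) summed to between 3108 and 4477 FPKM at 36.5 dpp and to between 56.8 and 123 at D28, and 10 Sertoli cell markers to between 490 and 632 against 3878 and 4582. The median change of all genes tested against matched ages was 0.12 for D16, 0.51 for D22 and 0.64 for D28. Relative to this median, Cyp17a1 was lower by a log2 value of -6.44 at D28, Insl3 by -5.99, Cyp11a1 by -2.77 and Hsd3b1 by -2.39. Lhcgr, Star, Fdx1 and Hsd17b3, with log2 changes of -0.24, -0.05, -0.03 and 0.03 as deposited, lay at -0.89, -0.70, -0.68 and -0.62 relative to it. Por, at 0.75 (limma adjusted p = 0.000423, ratio of medians 1.69), lay at 0.11 relative to the median gene. The part of tissue makeup in these values was not tested.

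**Figure D2:**
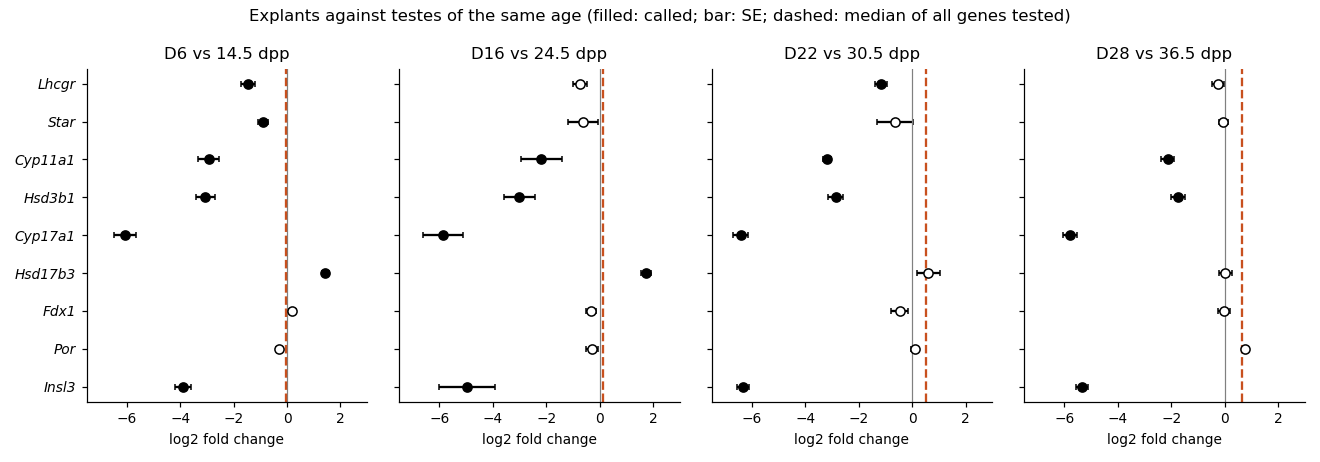
Log2 fold change with its standard error for the 9 genes in explants against testes of the same age, with filled points for genes called and a dashed line at the median of all genes tested. Cyp17a1 and Insl3 lie furthest to the left in all 4 panels, and the dashed line moves from -0.04 at D6 to 0.64 at D28.

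The study's main comparison set D16, D22 and D28 against the 14.5 dpp testes, with a limma F test over the 3 contrasts. The 3 contrasts share the 14.5 dpp libraries. In each of them 5 genes were lower and 0 higher, and these were Insl3, Cyp17a1, Cyp11a1, Hsd3b1 and Star. Of 11517 genes, 5.35%, 5.51% and 6% were lower at D16, D22 and D28, and 6.56%, 7.34% and 7.63% were higher. For Hsd3b1 the log2 changes were -2.86, -2.24 and -1.91 (F test adjusted p = 0.000651), and for Cyp11a1 -2.43, -2.77 and -2.50 (adjusted p = 0.00117). Star stood at 7.96 and 7.93 FPKM at 14.5 dpp, above all 9 cultured libraries (2.00 to 5.60 FPKM), with log2 changes of -1.50, -0.88 and -1.35 (limma F test adjusted p = 0.00160). In a fit of all 10 groups Star was no longer called by the F test (limma adjusted p of the single contrasts, which did not set the call, 0.0501 to 0.248). Lhcgr had log2 changes of -0.80, -0.71 and -0.68 and did not pass the F test (adjusted p = 0.0870). Both 14.5 dpp testes weighed on it, since without replicate 1 it was called in all 3 contrasts (-1.24, -1.15 and -1.13) and without replicate 2 the changes were -0.35, -0.26 and -0.24. Hsd17b3 did not pass (F test adjusted p = 0.0794) but was called higher at D16 by the F test in the fit of all groups. Its log2 change there was 0.95, with a limma adjusted p of this contrast alone of 0.0290. Star at D22 was not called without D22 replicate 1 or 2, since the medians then differed less than 2-fold. Fdx1 (F test adjusted p = 0.488) and Por (0.0181, ratios of medians under 2) were not called.

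The difference between both time courses was tested directly, as the change from D6 to D28 less the change from 14.5 to 36.5 dpp. By limma, 4 of the 9 genes had a positive and 2 a negative difference, while 50.9% of 12482 genes were positive and 25.5% negative, so a call is common here. The median difference of all genes was 0.63. For Insl3, the difference was -1.45 (SE 0.41, limma adjusted p = 0.00839). Its levels were 27.3 and 40.0 FPKM at 14.5 dpp and 95.7 to 147 at 36.5 dpp, and 0.819 to 2.40 at D6 and 1.27 to 2.36 at D28. For Hsd17b3 it was -1.40 (SE 0.32, adjusted p = 0.00237). Por (1.05), Hsd3b1 (1.32), Lhcgr (1.22) and Star (0.85) had positive differences, at adjusted p from 6.96e-05 to 0.0342, which were 0.41, 0.69, 0.59 and 0.21 above the median gene. With median-ratio scaling between libraries these 4 genes were no longer called, whereas Insl3 (-2.43, adjusted p = 0.000238) and Hsd17b3 (-1.64, adjusted p = 0.000610) were. Fdx1, at -0.21 and not called as deposited, was called at -1.12 (adjusted p = 0.00558) with this scaling. Cyp11a1 (0.80, limma adjusted p = 0.170) and Cyp17a1 (0.28, adjusted p = 0.648) were not called as deposited. Both depended on the testis of 14.5 dpp kept, at 1.51 and 1.05 without replicate 1 and at 0.09 and -0.49 without replicate 2. A pseudocount of 0.1 ended the calls of Insl3 (adjusted p = 0.0687) and Hsd17b3 (adjusted p = 0.0696), and the fit of all groups that of Insl3 (adjusted p = 0.158). Hsd3b1 also lost its call without any of 6 libraries (14.5 dpp replicate 2, 36.5 dpp replicate 2 or 3, D28 replicate 1, D6 replicate 1 or 2, adjusted p = 0.0502 to 0.165) and Lhcgr without 14.5 dpp replicate 2 (adjusted p = 0.0613).

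Within each library, levels were set relative to Cyp11a1 as the log2 ratio of FPKM + 1, which does not depend on the scaling of the library except through the added 1. Cyp17a1 was above Cyp11a1 in every testis, by 1.18 to 3.27 between 8.5 and 53.5 dpp, and below it in every explant, by -1.26 to -0.11. Insl3 went from 0.80 to 3.72 in testes to between -0.92 and 0.78 in explants. These genes were thus lower relative to Cyp11a1 in culture. Hsd3b1 was 1.84 to 3.91 above Cyp11a1 in explants, a range that overlapped that of 8.5 to 36.5 dpp. Fdx1 was 2.65 to 4.00 above it in explants and -0.35 to 2.66 in testes, and Lhcgr was -0.19 to 0.83 in explants and -3.24 to 0.21 in testes. The 9 genes therefore did not change in a fixed ratio. Cyp11a1 itself was low in explants, which raises this measure for every other gene.

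**Figure D3:**
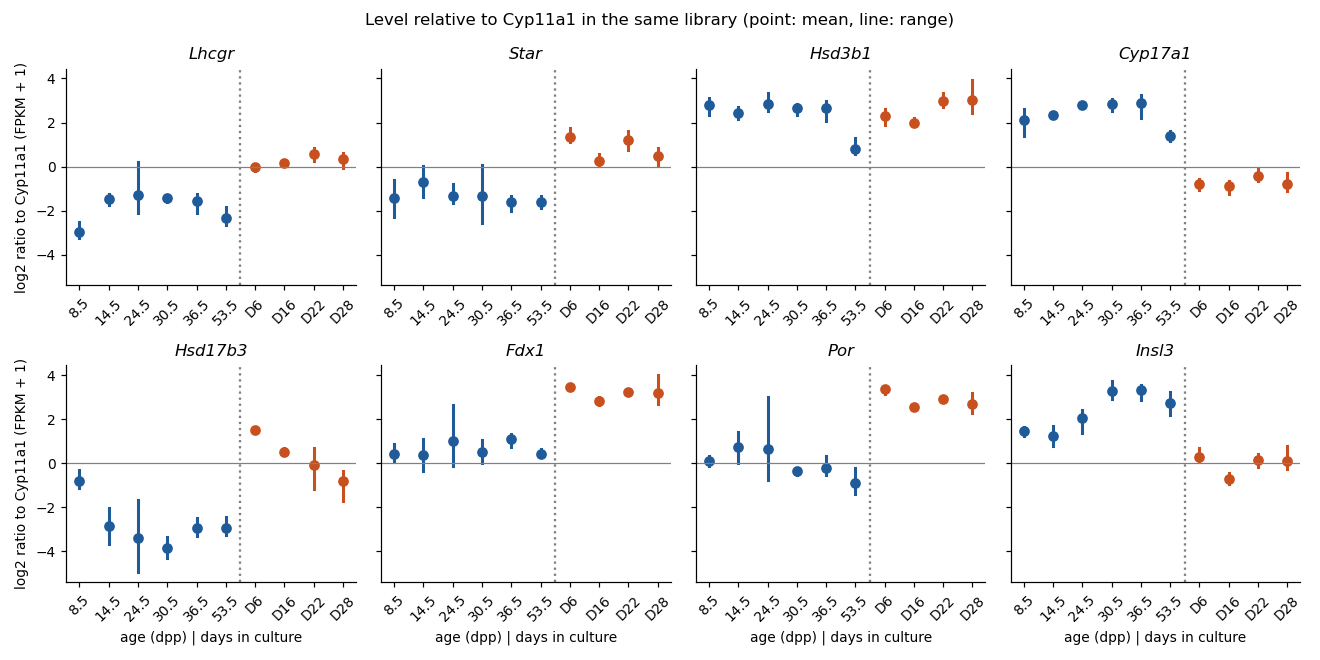
Log2 ratio of FPKM + 1 of each gene to that of Cyp11a1 in the same library, as group mean (point) and range (line), for testes (blue) and explants (orange). Cyp17a1 lies above 0 in all testes and below 0 in all explants, and Fdx1 and Por lie above 2 in all explants.

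Likeness of patterns was described over all 29 libraries by Pearson's r of log2(FPKM + 1), with no test, since the points share groups and a difference between testes and explants. Insl3 and Cyp17a1 were nearest to each other among 12761 genes (r = 0.96), and Cyp17a1 was nearest to Cyp11a1 (r = 0.95). Both values were lower within each kind of tissue. Within the 17 testes they were 0.62 and 0.74, and within the 12 explants -0.08 and 0.21. Genes outside the 9 came close behind, with Cdca8 (r = 0.95) and Prim2 (r = 0.94) next after Cyp17a1 for Insl3. For Cyp17a1, Ccdc34 (r = 0.94) followed Insl3 and Cyp11a1. Aldh1b1, an aldehyde dehydrogenase of mitochondria, was nearest to Hsd3b1 (r = 0.92) and to the mean of the 9 genes (r = 0.90). It ranged from 0.121 to 2.56 FPKM in testes and from 0 to 0.0856 in explants. Gnrhr, the receptor of gonadotropin-releasing hormone, was the next to the mean (r = 0.88), at 1.32 to 5.94 FPKM in testes and 1.03 to 2.03 in explants. Hsd17b3 was nearest to Samd14 (r = 0.92), Por to Zfp207 (r = 0.94) and Lhcgr to Slco1a4 (r = 0.85). Star (Calb2, r = 0.60) and Fdx1 (Zfp523, r = 0.64) had no neighbour above 0.64. The haemoglobin genes Hba-a1 (r = 0.85) and Hbb (r = 0.84) were also among the 10 genes nearest to the mean, and Hba-a1 ranked after Aldh1b1 and Cyp17a1 for Hsd3b1 (r = 0.89). Red blood cell markers summed to between 1.17 and 8.55 FPKM in explants and to between 26.9 and 1441 in testes, and their part in this likeness was not tested.

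Other genes of the pathway were followed by lists. For cholesterol supply, 13 of 15 genes were higher and 2 lower at D28 than at 36.5 dpp, beside 46.7% and 23.6% of all genes, with a median log2 change of 1.81 beside 0.64. Soat1, which esterifies cholesterol (2.80), Tspo (2.42) and the lipoprotein receptor Scarb1 (2.40) had the largest rises, and the hormone-sensitive lipase Lipe the largest fall (-2.57, limma adjusted p = 1.64e-06). Against 14.5 dpp, 1 of the 15 (Npc2) was higher and 1 (Lipe) lower at D28, with a median of -0.02. Of the other steroid dehydrogenases and electron donors, 8 of 10 were tested at D28 against 36.5 dpp and 7 were higher (median 2.04), again beside 46.7% of all genes, among them Hsd17b12 (2.38), Hsd3b7 (2.35) and Fdxr (2.33), the reductase upstream of ferredoxin. Against 14.5 dpp, 0 of 9 were higher and 1, Hsd17b7, was lower (-1.01, F test adjusted p = 0.0134). Of all genes, 7.63% were higher and 6% lower at D28 than at 14.5 dpp. Most genes of both lists, like most genes tested, were thus not called in that comparison. Cyp11a1, Cyp17a1 and Hsd3b1 were lower there, and both lists are expressed in other testis cells too.

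Among 11 tested genes of LH receptor signalling, 4 were higher and 3 lower at D28 than at 36.5 dpp (median 0.26), shares near those of all genes (46.7% and 23.6%). Gnas, the stimulatory G protein, was higher (2.79), and the phosphodiesterases Pde8a (-2.14) and Pde4d (-1.54), which break down cyclic AMP, were lower. Against 14.5 dpp, only Pde4d of these 11 was called (-1.99, limma F test adjusted p = 0.00117), beside 7.63% of all genes higher and 6% lower. Of 6 genes of androgen metabolism and receptors, 3 were tested at D28 against 14.5 dpp and 2 were lower, beside 6% of all genes. These 2 were the 5α-reductase Srd5a1 (-1.35, F test adjusted p = 0.00295) and Akr1c14 (-1.89, adjusted p = 0.00239). Their products convert testosterone and dihydrotestosterone further.

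Other genes of Leydig cells were followed in the same way. Of 10 such genes, 6 were tested at D28 against 36.5 dpp and all 6 were higher (median 2.78), where 46.7% of all genes and 9 of 10 Sertoli cell markers (median 3.09) were higher too. Nr5a1 stood at 92.8 ± 13.6 FPKM at D28, 76.4 ± 11.9 at 14.5 dpp (n = 2) and 6.86 ± 1.06 at 36.5 dpp (SD, n = 3), and this gene and Aldh1a1 are also expressed in Sertoli cells. Against 14.5 dpp, 6 of 8 were not called and 2 were higher at D28, beside 7.63% of all genes higher. The 2 were Hsd11b1, which interconverts corticosterone and its inactive form (3.01, limma F test adjusted p = 0.000535), and the adhesion molecule Vcam1 (0.98, adjusted p = 0.00653). All 11 genes of progenitor and fetal Leydig cells were higher at D28 than at 36.5 dpp (median 2.36), beside the same share of all genes, led by Tcf21 (3.71), Nes (3.57), Dlk1 (3.09) and Pdgfra (2.85). Against 14.5 dpp the median change of these 11 was -0.15, and against 8.5 dpp 8 of them were lower at D28, beside 10.5% of all genes. Tcf21, for example, stood at 66.8 ± 8.50 FPKM at D28 (SD, n = 3) and 61.6 ± 15.9 at 14.5 dpp (SD, n = 2).

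**Figure D4:**
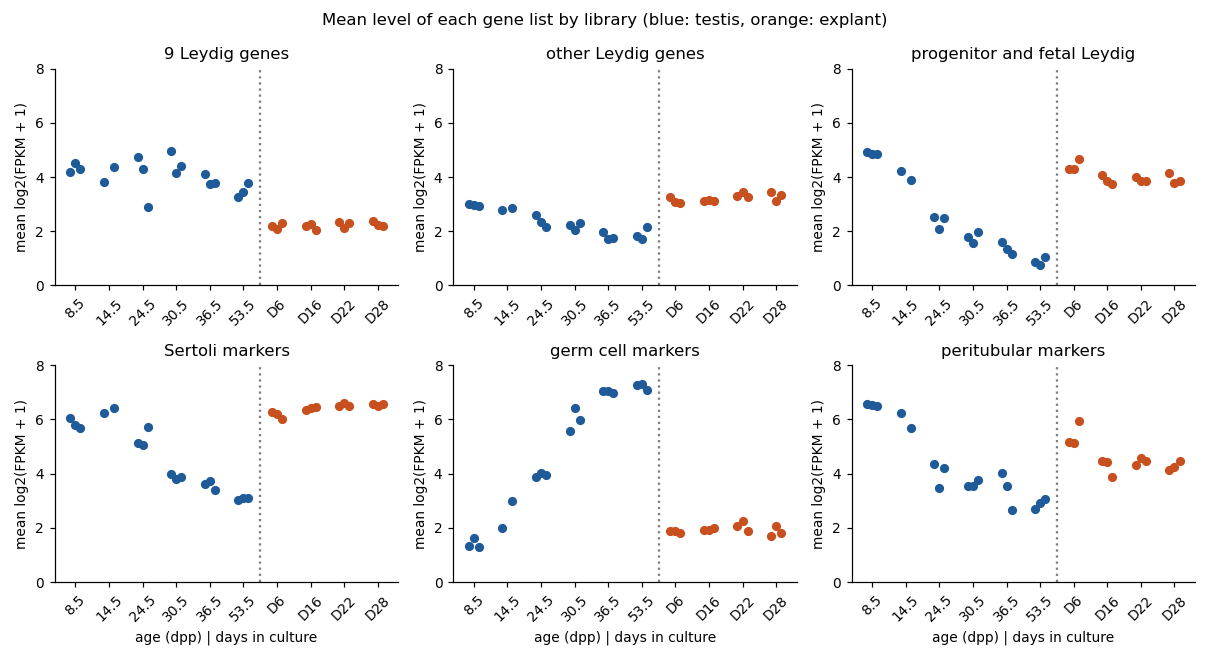
Mean log2(FPKM + 1) of the 9 Leydig genes and of 5 other lists in each library of testes (blue) and explants (orange). The 9 genes lie between 2.06 and 2.37 in all 12 explants and between 2.90 and 4.95 in testes. The list of progenitor and fetal Leydig genes lies at or above 3.76 in explants, with group means of 4.43 at D6 and 3.92 at D28. In testes its group mean falls from 4.87 at 8.5 dpp to 0.896 at 53.5 dpp. Sertoli markers have group means of 6.16 at D6 and 6.55 at D28, and of 3.09 at 53.5 dpp.

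Markers of other cells moved in their own ways. Peritubular markers were lower at D28 than at 14.5 dpp for 4 of 5 genes (median -1.66), endothelial markers higher for 2 of 5 (median 0.92) and macrophage markers higher for 2 of 5 tested (median 0.66). Of all genes, 6% were lower and 7.63% higher in this comparison. Of 3 red blood cell genes tested, 2 were lower and 1 was higher (median -8.27), and the list summed to between 761 and 1030 FPKM at 14.5 dpp and to between 4.43 and 8.55 at D28. Their part in the results for Leydig cell genes was not tested. Of 4 adrenal cortex genes, the enzyme Cyp11b1 was listed at 0 in all libraries and Cyp11b2 reached at most 0.0665 FPKM. The receptor of adrenocorticotropic hormone, Mc2r, had a median of 0.312 FPKM in explants (at most 0.542) and of 0 in testes (at most 0.123). The 21-hydroxylase Cyp21a1 had medians of 0.759 FPKM in explants and 0.142 in testes. It was the only gene of this list tested, and was higher at D16 than at 24.5 dpp (log2 change 0.78, limma adjusted p = 0.00151), at D22 than at 30.5 dpp (0.71, adjusted p = 0.00342) and at D28 than at 36.5 dpp (0.93, adjusted p = 0.000872). Of all genes, 25.3%, 42.1% and 46.7% were higher there. Cyp21a1 was not called against 14.5 dpp (F test adjusted p = 0.772), nor at any culture time against 8.5 dpp (log2 changes from -0.58 at D6 to 0.05 at D28). In testes the list summed to between 0.812 and 1.31 FPKM at 8.5 dpp, and to at most 0.235 from 24.5 dpp on.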

How the data were processed

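Reads of 50 bp from poly(A) RNA were aligned by the authors to the rat genome rn6 with STAR 2.5.2a, and the FPKM values they deposited (called RPKM in the study) were made with StringTie and Ballgown on RefSeq transcripts. Read counts were not used here, so depth per library is unknown. Entrez identifiers were matched to symbols in a RefSeq table (17172 of 17322). Here log2(FPKM + 1) was fitted with limma 3.58.1 in R 4.3.3 for genes whose median reached 0.5 FPKM in any group of the fit, with Benjamini-Hochberg adjustment over all genes tested, and genes were called where the adjusted p was no higher than 0.05 and group medians differed at least 2-fold (no fold for the difference of time courses). Fits held the 2 groups at matched age, the 6 ages, 8.5 dpp with the explants, 14.5 dpp with D16, D22 and D28, or, for the difference of time courses, 14.5 dpp, 36.5 dpp, D6 and D28. Figures were drawn with matplotlib 3.10.9. The members and lists were chosen with earlier results of these data known. Up to 4 genes per list were named, those with the largest changes at D28, and the nearest genes by correlation. The fits were tested on simulated data. No pairing was assumed, since the labels do not say that a replicate number marks a shared animal or batch. Same-numbered libraries of explants and testes of the same age did not deviate together, and other pairs of groups were not checked. P-values measure the spread between these libraries. Alternatives changed the pseudocount, filter, scaling, prior, ratio, groups in the fit and block, and each library was left out in turn. Some results for the list of androgen metabolism are not reported here.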

Additional observations from a re-analysis of the deposited data

Results flagged for a closer look

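The change from D6 to D28 differed from that from 14.5 to 36.5 dpp for 6 genes by limma's test of the difference, on the log2(FPKM + 1) scale and against a median of 0.63 over all genes. The differences were -1.45 for Insl3 and -1.40 for Hsd17b3 and 1.32 for Hsd3b1, 1.22 for Lhcgr, 1.05 for Por and 0.85 for Star. Since 50.9% of all genes tested had a positive and 25.5% a negative difference, such a result is common in these data. In a fit of all 10 groups, 3 of the 9 genes were called, Hsd17b3, Por and Lhcgr. The shares above belong to the fit of 14.5 dpp, 36.5 dpp, D6 and D28.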

How the results depend on the processing

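Of 3239 recomputed values, 3134 kept their direction and side of the threshold, 57 lost a call, 47 gained one and 1 reversed, and 61 uncalled values changed sign. The reversal was Lhcgr from 14.5 to 24.5 dpp, at 0.80 (adjusted p = 0.0221) with scaling to somatic genes. The number of the 9 genes called from 24.5 to 30.5 dpp became 2 with median-ratio scaling, 1 by adjusted p alone and 2 with somatic scaling. From 30.5 to 36.5 dpp it became 0, 2 and 0 in the same order. From 36.5 to 53.5 dpp it became 0 with median-ratio scaling, and for the difference of time courses 3 with that scaling and in the fit of all groups. Somatic scaling gave 1 from 8.5 to 14.5 dpp and 3 from 14.5 to 24.5 dpp, all higher (Fdx1, Hsd3b1 and Lhcgr). The cause was not tested. Leaving out each library gave 1 to 2, 1 to 2, 0 to 2, 0 to 1 and 0 to 2 genes over the 5 steps in vivo, and 4 to 8 for the difference of time courses. With the replicate block, 3 calls were lost (Star and Lhcgr at D6 against 14.5 dpp, Hsd3b1 in the difference of time courses, adjusted p = 0.0581), the latter count became 5, and 159 other values kept their side. Deviations of same-numbered libraries of explants and testes of the same age correlated at -0.13 to 0.10. A test of each contrast, added after seeing the data, called 6 genes at D28 against 14.5 dpp, Lhcgr included (adjusted p = 0.0464). The share of all genes called by that test is not given. Over all genes, the 898 calls at D6 against 14.5 dpp became 376 with the replicate block and 406 without D6 replicate 1, and calls by adjusted p alone were 1.66 to 5.86 times as many in the 15 comparisons where they differed by over 1.5 times. Unknown depth limits statements on genes near 0.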
